A study of Mus musculus with 6 samples.

Results

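The Ifitm genes encode the interferon-induced transmembrane proteins of the mouse, and all 7 members sought by symbol (Ifitm1, Ifitm2, Ifitm3, Ifitm5, Ifitm6, Ifitm7 and Ifitm10) were among the 27179 genes with a deposited expression value. The family was taken up because Ifitm6 was known to be much lower in the libraries labelled Asic3-null than in those labelled WT. The levels and differences of the members in that comparison are therefore descriptions, without a test. The RNA came from 3 libraries labelled Asic3-null (Asic3-/-) and 3 labelled WT (Asic3+/+), all from C57BL/6 mice aged 8 weeks. Each library held total RNA of leukemia-initiating cells (LICs), sorted from bone marrow as YFP+Mac-1+c-Kit+ cells. The leukemia of both groups was made by carrying the MLL-AF9 fusion, with YFP as the tag, into Lin- fetal liver cells by a retrovirus and transplanting these into irradiated recipients, so every library carried MLL-AF9. The labels do not say whether the 3 libraries of a group came from separate mice.

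IFITM proteins are short membrane proteins that hinder the fusion of enveloped viruses with the cell, mostly at the plasma membrane for Ifitm1 and in endosomes and lysosomes for Ifitm2 and Ifitm3. Interferons bind receptors at the cell surface and act on their target genes through kinases and transcription factors. Ifitm5 is the bone member, made by osteoblasts, and Ifitm10 is a distant member not known for a response to interferon.

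On the RefSeq annotation of GRCm38.p6, 5 of the 7 genes lay side by side on chromosome 7, over 67.9 kb. Along the chromosome they came as Ifitm5 (chr7:140948958-140950243), Ifitm2 (chr7:140954837-140959686), Ifitm1 (chr7:140967429-140969827), Ifitm3 (chr7:141009590-141010744) and Ifitm6 (chr7:141015812-141016892). Ifitm3 and Ifitm6 were neighbors, 5.07 kb apart, whereas Ifitm1 and Ifitm3 were separated by 39.8 kb. Ifitm10 (chr7:142325835-142373779) began 1309 kb beyond the cluster, and Ifitm7 (chr16:13981702-13986867) was on chromosome 16.

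The sequences at the starts of Ifitm6, Ifitm2 and Ifitm3 are shown because these were the members with the highest levels in LICs, and because Ifitm2 and Ifitm3 share letters there that Ifitm6 lacks. They are RefSeq sequences of GRCm38.p6, 80 bases each, read 5′ to 3′ on the minus strand. Capitals mark the longest run of letters that the start windows of any pair of members had in common, found by comparing the windows on both strands from 250 bases before to 50 bases after each start. The lines give the bases before the Ifitm6 start (chr7:141016893-141016972), those before one Ifitm2 start (chr7:140955962-140956041), and those from 68 bases before to base 12 after the Ifitm3 start (chr7:141010733-141010812).
Ifitm6: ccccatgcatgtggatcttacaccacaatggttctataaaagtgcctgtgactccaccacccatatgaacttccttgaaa
Ifitm2: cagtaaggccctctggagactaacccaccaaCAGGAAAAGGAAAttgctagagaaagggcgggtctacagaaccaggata
Ifitm3: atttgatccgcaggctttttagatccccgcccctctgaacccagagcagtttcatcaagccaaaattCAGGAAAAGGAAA

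The shared run CAGGAAAAGGAAA has 13 bases. It ended 37 bases before the start of Ifitm2 and crossed the start of Ifitm3. Of all 32851 RefSeq windows of this length, 4 held it on either strand, those of Ifitm2, Ifitm3, Igsf10 and Rpl4. The window of Ifitm6 did not hold it. The longest run that Ifitm6 had in common with Ifitm2 was AGGAGGTGG, of 9 bases, which 450 windows held, and the longest in common with Ifitm3 had 8 bases. A shared run is a description of letters, and its absence says only that these letters are not in this window.

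Before the values of the family, the libraries themselves need a short account. Levels are given as RPKM, reads scaled to the length of the gene and the size of the library, so that genes of unequal length can be set side by side. The library size recovered from the RPKM values was 1947168 to 2381861 reads. It is the total behind the RPKM scaling, and whether it covers all sequenced or aligned reads was not tested. Recovered reads on listed genes made up 99.62% to 99.65% of it. Asic3, the deleted gene, ran against the labels, with 0.435 to 1.85 RPKM under the WT label and 4.11 to 9.12 RPKM under the Asic3-null label. Meis1, a homeobox gene of the MLL-AF9 program named here after its values were seen, was called higher in Asic3-null, at 28.4 ± 6.78 RPKM against 14.4 ± 0.483 RPKM in WT (SD, n = 3; difference 0.91 on the log2 scale, SE 0.19, adjusted p = 0.0367). Hoxa9, another homeobox gene of that program and also named after its values were seen, was not called, with 52.8 ± 12.8 RPKM in Asic3-null and 78.2 ± 8.25 RPKM in WT (SD, n = 3; difference -0.58, SE 0.18, adjusted p = 0.151). Because of Asic3, every direction below is given as one between labels. Xist was at 0.0236 to 0.0573 RPKM in WT and at 46.5 to 71.9 RPKM in Asic3-null, and the sum of 4 Y-linked genes was 81.4 to 118.2 RPKM in WT and 0 in Asic3-null. The sex of the cells and the genotype label cannot be told apart.

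Ifitm6 stood at 198.7, 119.6 and 140.5 RPKM in the libraries labelled WT and at 13.6, 15.5 and 9.45 RPKM in those labelled Asic3-null. All 3 WT levels lay far above all 3 Asic3-null levels, and the groups did not overlap. The mean level was 152.9 ± 41.0 RPKM (SD, n = 3) in WT and 12.8 ± 3.10 RPKM (SD, n = 3) in Asic3-null, from 532 and 49 reads over the 3 libraries of each group. The difference on the log2(RPKM + 1) scale was -3.47 (SE 0.23, 95% interval -3.99 to -2.95), that is, an 11.1-fold lower level in Asic3-null on that scale. It was the 12th lowest of the differences of the 12037 genes whose mean level reached 1 RPKM. In bulk RNA, fewer cells of a type and less RNA per cell cannot be told apart.

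Ifitm3, which restricts viruses entering through endosomes and is also known as an early germ cell marker, had 38.9, 66.6 and 29.99 RPKM in WT and 10.7, 5.18 and 2.63 RPKM in Asic3-null. The levels did not overlap, although they rested on fewer reads than those of Ifitm6, with 4 reads in Asic3-null replicate 3 and 84 in WT replicate 2. Mean levels were 45.2 ± 19.1 RPKM (SD, n = 3) in WT and 6.16 ± 4.11 RPKM (SD, n = 3) in Asic3-null. The difference was -2.77 on the log2 scale (SE 0.42, 95% interval -3.72 to -1.82), or 6.83-fold lower in Asic3-null, and was the 36th lowest of all.

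Ifitm2, the close relative of Ifitm3 that also acts in endosomes, was the most abundant member in every library. Its level was 355.0, 212.1 and 303.2 RPKM in WT and 242.5, 250.4 and 205.8 RPKM in Asic3-null. The groups overlapped, since WT replicate 2 lay below Asic3-null replicates 1 and 2. Mean levels were 290.1 ± 72.3 RPKM (SD, n = 3) in WT and 232.9 ± 23.8 RPKM (SD, n = 3) in Asic3-null, with a difference of -0.29 on the log2 scale (SE 0.19, 95% interval -0.71 to 0.14). Ifitm2 was among the top 1.89% of tested genes by level in WT and the top 2.48% in Asic3-null. Ifitm6, by contrast, went from the top 4.46% in WT to the top 53.1% in Asic3-null.

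Ifitm1, the member found mostly at the cell surface, was barely measured. It had 5.66, 2.45 and 0.503 RPKM in WT, from 10, 4 and 1 reads, and 1.54, 0 and 0 RPKM in Asic3-null, from 3, 0 and 0 reads. WT replicate 3 lay below Asic3-null replicate 1, so the groups overlapped. A count of 0 allows up to 3 reads, or 1.52 RPKM in Asic3-null replicate 3, for counting error only. The fitted difference of -1.25 on the log2 scale (SE 0.58) changed with the value added before the logarithm and is no bound, and no fold is given.

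The remaining members were at the limit of detection. Ifitm5 had 3, 0 and 1 reads in Asic3-null and 0, 1 and 1 in WT. Ifitm7 had 2 reads in all Asic3-null libraries together and 1 in WT, and Ifitm10 had 0 and 2. At this depth no difference of Ifitm5, Ifitm7 or Ifitm10 was detectable, and their mean levels kept them out of the fit.

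**Figure D1:**
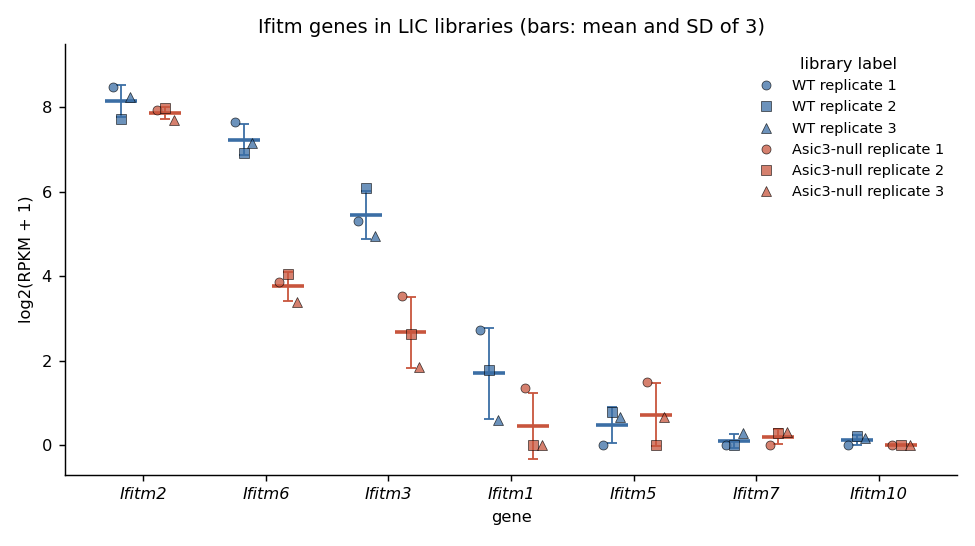
Level of each Ifitm gene (x axis) in each library, as log2(RPKM + 1) on the y axis; points are libraries, and bars are the mean and SD of 3. Ifitm6 and Ifitm3 show separate groups, Ifitm2 is high in all 6 libraries with overlapping groups, and Ifitm5, Ifitm7 and Ifitm10 lie near 0.

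In WT the order of mean levels was Ifitm2, Ifitm6, Ifitm3 and Ifitm1, and neighbors in this order did not overlap between libraries. Below Ifitm1, the levels of Ifitm5, Ifitm7 and Ifitm10 could not be ordered. In Asic3-null Ifitm2 was again highest and Ifitm6 next, but the levels of Ifitm6 and Ifitm3 overlapped.

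Of the 7 members, 4 reached the mean level for the fit, and Ifitm1 did so through its WT level alone. In the same fit, limma called 3.35% of all 12037 genes, 2.82% lower in Asic3-null at an adjusted p under 0.05 and 0.523% higher. The levels of the labels did not overlap for 22.6% of the genes, and for 11.4% with Asic3-null lower. Ifitm3 and Ifitm6 met both descriptions, and Ifitm1 and Ifitm2 met neither. As Ifitm6 was chosen on this comparison, nothing is read from that count. The median difference over all tested genes was 0.03 on the log2 scale.

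The family as a whole summed to 598.2, 401.7 and 475.1 RPKM in WT and to 270.1, 271.4 and 218.7 RPKM in Asic3-null. Each WT sum was above each Asic3-null sum, and the mean sum was 1.94 times as high in WT. Ifitm6 carried 58.8% of the fall of the mean sum, Ifitm2 24.0% and Ifitm3 16.4%. The Ifitm2 levels overlapped between the labels, at 212.1 to 355.0 RPKM in WT and 205.8 to 250.4 RPKM in Asic3-null. The Ifitm2 share is therefore not set apart from the spread between libraries, and no order between Ifitm2 and Ifitm3 is read from it. How far the shares depend on single libraries was not tested. The make-up of the family also differed between the labels. Ifitm2 gave 52.8% to 63.8% of the family's RPKM in WT and 89.8% to 94.1% in Asic3-null. Ifitm6 gave 29.6% to 33.2% in WT and 4.32% to 5.72% in Asic3-null.

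Ratios within a library do not depend on its depth. The ratio of the Ifitm6 level to the Ifitm2 level was 0.560, 0.564 and 0.464 in WT and 0.0560, 0.0620 and 0.0459 in Asic3-null. These ratios were tight within each label and did not overlap. As a difference of log2(RPKM + 1) values, Ifitm6 minus Ifitm2 differed by -3.18 between Asic3-null and WT (SE 0.14, n = 3 per group). The ratio of Ifitm3 to Ifitm2 was 0.110, 0.314 and 0.0989 in WT and 0.0440, 0.0207 and 0.0128 in Asic3-null, again without overlap.

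Ifitm6 and Ifitm3 were not separated from each other in this way. The ratio of Ifitm6 to Ifitm3 was 5.11, 1.797 and 4.69 in WT and 1.27, 2.99 and 3.59 in Asic3-null. WT replicate 2, which had the most Ifitm3 of all libraries, fell inside the Asic3-null range. On the log2 scale, Ifitm6 minus Ifitm3 differed by -0.70 (SE 0.61) between the labels, and Ifitm6 minus Ifitm1 by -2.21 (SE 0.68). With 1 library left out, Ifitm6 minus Ifitm3 ran from -1.17 (without WT replicate 2) to -0.31 (without Asic3-null replicate 1). Ifitm6 minus Ifitm1 rests on the few reads of Ifitm1, which had 0 in 2 Asic3-null libraries, and became -0.54 with a pseudocount of 0.1 and -1.31 with limma-voom.

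**Figure D2:**
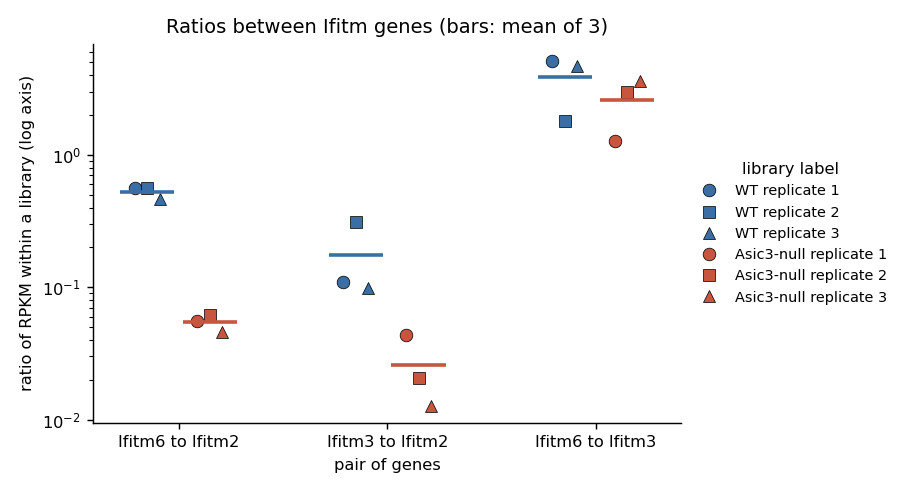
Ratio of RPKM between pairs of Ifitm genes within each library, on a log y axis, with the pair on the x axis; points are libraries and bars the mean of 3. Ifitm6 to Ifitm2 lies at 0.464 to 0.564 in WT and 0.0459 to 0.0620 in Asic3-null, Ifitm3 to Ifitm2 does not overlap either, and Ifitm6 to Ifitm3 overlaps.

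Reads from near-identical genes can be split between them. In GENCODE M21 transcripts, Ifitm6 shared none of its 854 words of 50 bases with another member or any other gene. Ifitm3 shared 5.56% of its words with other members and 7.79% with genes outside the family. Ifitm2 shared 3.30% with members and 48.5% with other genes, all predicted genes of the annotation, so its level is less certain than that of Ifitm6. How the authors' counting treated such reads is not given in the sources used here.

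The genes whose levels over the 6 libraries were most like those of Ifitm6 were found by the root mean square difference of log2(RPKM + 1) values, each gene centered on its own mean. These levels contain the difference between the labels for which Ifitm6 was chosen, so likeness here is not separate from that difference. Beside Ifitm6, with a difference of -3.47 on the log2 scale, Stfa3 came first (0.249, difference -3.25), followed by Stfa2l1 (0.273, -3.32) and Cstdc4 (0.274, -3.27). These are stefin A genes of chromosome 16, which encode inhibitors of cysteine proteases. Stfa3 had a mean level of 56.0 ± 7.90 RPKM (SD, n = 3) in WT and 5.17 ± 1.79 RPKM (SD, n = 3) in Asic3-null. Wfdc21, a gene for a small secreted protein with a WAP domain, was next (0.310). Ighj2, a joining segment of the immunoglobulin heavy chain, came last of the 5 (0.312) but had 3 reads in WT and 0 in Asic3-null. Among 12036 genes, Ifitm3 took place 51 (0.704), Ifitm1 place 379 and Ifitm2 place 1770. The measure of likeness decides these names, since a Pearson correlation over the 6 libraries named 0 of the same 5 genes.

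Genes of the interferon pathway were examined for the inducers and relatives of the family. Of 70 listed genes 47 were tested, and 4 were called lower and 0 higher, beside 3.35% of all genes called in either direction. Of these 47 differences 35 lay below 0, with a median of -0.36 on the log2 scale, against 45.5% below 0 and a median of 0.03 over all tested genes. At an unadjusted p under 0.05 there were 16 of the 47 genes, beside 15.9% of all tested genes (1912 of 12037), a share against which each such count below is to be read. Limma-voom on recovered reads called 5 of the pathway genes and 543 genes in all.

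The 6 interferon ligand genes of the list were at 0 in every library. Of the receptor genes, 5 of 6 were tested and 0 called by limma, with 2 at an unadjusted p under 0.05 and 0 called by limma-voom. Ifngr1 and Ifngr2 encode the receptor of interferon gamma. Ifngr1 had 282.6 ± 21.3 RPKM (SD, n = 3) in Asic3-null and 274.3 ± 9.98 RPKM (SD, n = 3) in WT, a difference of 0.04 on the log2 scale. Ifngr2 had 22.2 ± 2.47 and 34.3 ± 4.62 RPKM (SD, n = 3), a difference of -0.60 with an adjusted p of 0.0879. Ifnar1 and Ifnar2, the receptor of type I interferon, differed by -0.05 and -0.22, and Il10rb, a chain of the type III receptor, by -0.34 (adjusted p = 0.298).

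The signaling genes gave 10 differences below 0 among 10 tested, with a median of -0.43, and 0 calls by limma or limma-voom, with 5 at an unadjusted p under 0.05. Stat2, a transcription factor of the type I response, differed by -0.43 (SE 0.29, adjusted p = 0.4996). Of the inhibitors 5 of 6 were tested and 0 called by limma, with 3 at an unadjusted p under 0.05 and 1 called lower by limma-voom. That gene was Socs3, a feedback inhibitor of cytokine signaling named here after its values were seen, with a difference of -1.55 and an adjusted p of 0.0605 in limma, which also called it without WT replicate 2.

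All 4 calls were among the 27 tested targets, of 42 listed. Samhd1, which depletes the nucleotides that reverse transcription needs, had 52.5, 50.2 and 35.8 RPKM in WT and 15.9, 17.1 and 17.1 RPKM in Asic3-null. The 3 Asic3-null levels were close together and all below WT, and the difference was -1.40 on the log2 scale (SE 0.17, adjusted p = 0.00320). Mx1, a GTPase that blocks influenza virus, fell by 1.27 (adjusted p = 0.0383), from 4.63 ± 1.21 RPKM in WT to 1.31 ± 0.32 RPKM in Asic3-null (SD, n = 3). Ifi47, an interferon-inducible GTPase, fell by 1.10 (adjusted p = 0.0315), and Zbp1, a sensor of Z-form nucleic acid, fell by 1.15 (adjusted p = 0.0453). Zbp1 reached the mean level for the fit through WT alone, with 0.721 RPKM in Asic3-null from 11 reads and 2.82 RPKM in WT from 39. The call of Samhd1 held whichever library was left out, and that of Zbp1 was lost whichever was left out. The call of Mx1 held when WT replicate 3 was left out and that of Ifi47 when Asic3-null replicate 2 was, and both were lost when any other library was left out.

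The 3 tested targets with the highest mean levels were not called. Psmb8 and Psmb9, subunits of the immunoproteasome, had 314.1 ± 48.8 and 135.7 ± 24.5 RPKM in Asic3-null against 282.5 ± 16.4 and 123.7 ± 11.3 RPKM in WT (SD, n = 3). Tap1, which carries peptides to MHC class I, had 96.9 ± 13.8 RPKM in Asic3-null and 76.0 ± 13.5 RPKM in WT (SD, n = 3). Their differences were 0.14, 0.12 and 0.35 on the log2 scale, with adjusted p of 0.648, 0.740 and 0.336. The targets Ifit3, Ifi44 and Iigp1 were at 0 in every library.

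**Figure D3:**
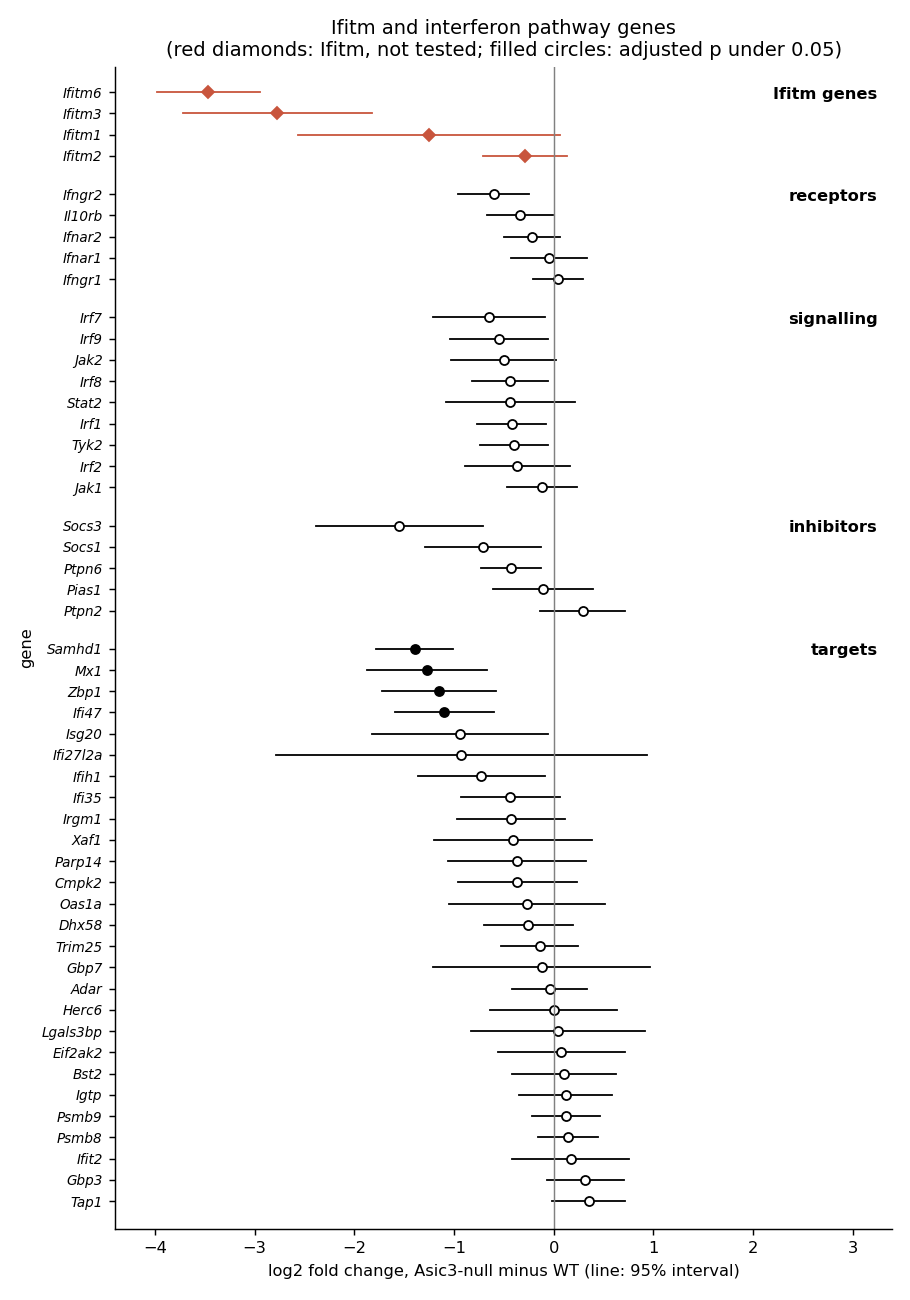
Difference between the labels (x axis, log2 fold change of Asic3-null minus WT) for fitted Ifitm and interferon pathway genes (y axis), with 95% intervals; filled circles passed an adjusted p under 0.05. Ifitm6 (-3.47) and Ifitm3 (-2.77) lie below the lowest of the called targets, Samhd1 (-1.40), while Psmb8, Psmb9 and Tap1 lie at 0.12 to 0.35.

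IFITM proteins share the CD225 fold with a few other membrane proteins and are handled by known partners. Of 17 such genes 9 were tested, and 0 were called by limma or limma-voom, beside 3.35% of all genes in limma. At an unadjusted p under 0.05 there were 3, beside 15.9% of all genes. Tmem91, the one tested CD225 relative, had 2.77 ± 2.49 RPKM in Asic3-null and 1.57 ± 1.63 RPKM in WT (SD, n = 3), whereas Trarg1, Tmem233, Syndig1 and Syndig1l were at 0. Zdhhc20, which adds palmitate to IFITM3, differed by 0.04, and Setd7, which methylates it, by -0.25. Nedd4, the ubiquitin ligase that sends IFITM3 to degradation, had 15.4 ± 2.14 RPKM in Asic3-null and 9.22 ± 2.71 RPKM in WT (SD, n = 3), a difference of 0.71 with an adjusted p of 0.147. Its levels in the labels did not overlap, as was so with Asic3-null higher for 11.2% of all tested genes.

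The other partners gave small or uncertain differences on the log2 scale. Vapa, a protein of membrane contact sites that binds IFITM3, differed by 0.11, and Zmpste24, which works with IFITM proteins against viruses, by 0.21. The tetraspanins Cd81 and Cd9 differed by 0.47 and -0.69 (adjusted p = 0.273 and 0.449). Fkbp11, known to bind Ifitm5, differed by 0.67 (adjusted p = 0.299). Cr2, which joins CD81 in the B cell coreceptor, was at 0.

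Genes beside the cluster were compared by position, which the choice of members had not used. Of 24 other genes within 200 kb of the cluster, 7 were at 0 and 13 were tested. Of these, 10 differences lay below 0, with a median of -0.20 on the log2 scale, beside 45.5% and 0.03 over all tested genes. Rnh1, the ribonuclease inhibitor, was the one gene called lower, beside 2.82% of all genes, at 82.9, 78.1 and 72.9 RPKM in Asic3-null and 121.8, 108.1 and 118.2 RPKM in WT (difference -0.57, SE 0.12, adjusted p = 0.0379). This call was lost whichever of the 6 libraries was left out. Of the 13, 5 had an unadjusted p under 0.05 in limma, beside 15.9% of all tested genes. For 5 the levels did not overlap with Asic3-null lower, beside 11.4% of all tested genes. For 1 they did not overlap with Asic3-null higher, beside 11.2%. On the near side of the cluster Pgghg, which removes glucose from hydroxylysine of collagen, differed by -0.42 (adjusted p = 0.374). On the far side B4galnt4, a glycosyltransferase gene, differed by -0.54 (adjusted p = 0.548), Pkp3, a desmosome protein, by -0.81 (adjusted p = 0.192) and Sigirr, an inhibitor of interleukin 1 receptor signaling, by -0.48 (adjusted p = 0.235).

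Farther out, Ptdss2, a phosphatidylserine synthase, was the neighbor with the highest difference, at 0.55 (adjusted p = 0.270). Bet1l, a Golgi SNARE, differed by -0.42, Ric8a, a chaperone of G proteins, by -0.17, Sirt3, a mitochondrial deacetylase, by 0.04, and Psmd13, a proteasome subunit, by 0.10. Hras, the small GTPase, differed by -0.16, and Lrrc56 and Lmntd2 by -0.20 and -0.03. Of the members within the cluster, Ifitm2 at one side had a difference of -0.29 and Ifitm6 at the other had -3.47.

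**Figure D4:**
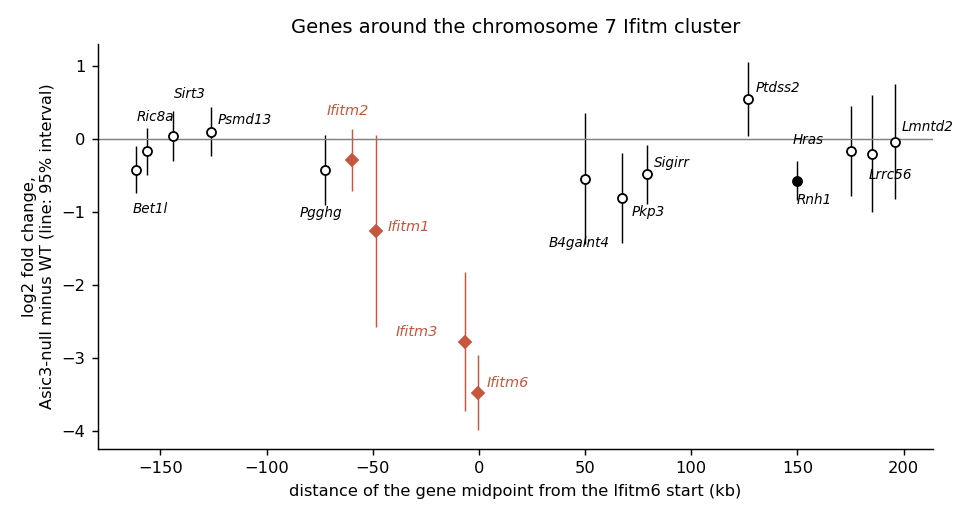
Difference between the labels (y axis, log2 fold change with 95% interval) against the distance of each gene's midpoint from the Ifitm6 start (x axis, kb); red diamonds are Ifitm genes, circles other genes, and the filled circle passed an adjusted p under 0.05. The neighbors lie between -0.81 and 0.55, while Ifitm3 and Ifitm6 lie at -2.77 and -3.47.

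Neutrophil granule and monocyte genes were lower together with Ifitm6 and Ifitm3. Of 17 neutrophil granule genes 16 were tested and 13 called lower, beside 2.82% of all genes. Their summed level was 9293 to 10872 RPKM in WT and 3930 to 5241 RPKM in Asic3-null. Ly6g had 1 read, in Asic3-null replicate 1, and 0 in every other library. The azurophil granule genes Mpo, Elane, Prtn3 and Ctsg, which progenitors already express, gave 90.0% to 92.0% of the sum in Asic3-null and 43.3% to 58.5% in WT, and the others summed to 333.7 to 522.6 RPKM in Asic3-null and 4423 to 5380 RPKM in WT. Of these 4, named after their values were seen, Elane was called lower, whereas Mpo, Prtn3 (1666 RPKM in Asic3-null, 2205 RPKM in WT) and Ctsg (1394 and 1029 RPKM) were not called, and the Ctsg difference was above 0, at 0.43 on the log2 scale (adjusted p = 0.289). Genes of later granules and S100 proteins, also named after their values were seen, were called lower, with differences on the log2 scale of -5.39 for Camp, -4.35 for S100a9, -4.08 for Ngp and -2.60 for Lcn2. All 10 monocyte markers were tested and 4 called lower, again beside 2.82% of all genes (Csf1r, Ccr2, F13a1 and Adgre1, named after their values were seen), with sums of 2050 to 2230 RPKM in WT and 1400 to 1616 RPKM in Asic3-null, and no monocyte marker was at 0 in all libraries. The cells were sorted as c-Kit+, and whether mature neutrophils or monocytes were among them was not tested. The part of such cells in the Ifitm levels was not tested. T cell markers, of which Cd3e and Cd8a were at 0, summed to 1.66 to 2.31 RPKM in Asic3-null and 1.23 to 2.18 RPKM in WT. B cell markers, with Ms4a1 at 0, summed to 40.1 to 47.6 and 43.3 to 49.996 RPKM. Erythroid markers summed to 0.972 to 2.41 and 2.84 to 10.3 RPKM. Osteoblast markers, which bear on Ifitm5, summed to 28.6 to 36.4 and 24.4 to 32.2 RPKM, with Bglap2, Alpl and Sp7 at 0. Nearly all of that sum was Runx2, which is not restricted to osteoblasts (33.3 RPKM in Asic3-null and 27.7 RPKM in WT), and Bglap, Ibsp and Col1a1 had mean levels of at most 0.274 RPKM.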

How the data were processed

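Per the submitters' processing notes, CASAVA 1.8.2 and TopHat2 2.0.12 were used with GRCm38. Libraries were TruSeq v2, which keeps no strand, and the authors deposited RPKM values per gene for 6 libraries. The counting tool is not given in the sources used here. Groups followed the labels. Whole reads, within 1e-06, were recovered from the RPKM values of all 16825 genes above 0. RefSeq gave 25275 symbols and GENCODE 17, and 1887 genes had none.

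Differences were fitted with limma 3.58.1 (R 4.3.3) on log2(RPKM + 1), with an intensity trend, for genes with a mean of at least 1 RPKM, and p-values were adjusted by Benjamini-Hochberg over all of them, with a threshold of 0.05. The p-values measure the spread between these libraries, which may be technical. The fit was tested on simulated data. Runs of letters shared between start windows were sought after the windows had been seen. The addition of 1 understates changes of low genes. Floors cover counting error only. Alternatives were other pseudocounts, filters, scalings, a replicate block, limma-voom and each library left out.

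Named genes were the members, the 5 genes most like Ifitm6, tested CD225, partner and neighboring genes, called interferon genes, receptors, STATs and the 3 targets with the highest mean, and markers only with sums or at 0. Outside this rule, Socs3 and single granule, monocyte, osteoblast, sort and homeobox genes were named after their values were seen. A few genes under this rule are not reported here. Members and lists were chosen with earlier results of these data known.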

Additional observations from a re-analysis of the deposited data

How the results depend on the processing

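Over the alternatives the difference of Ifitm6 on the log2 scale lay between -3.63 and -3.26, that of Ifitm3 between -3.21 and -2.36 and that of Ifitm2 between -0.50 and -0.13, and Ifitm6 minus Ifitm2 lay between -3.27 and -3.08. Ifitm1 differed by -3.02 with a pseudocount of 0.1 and by -2.22 with limma-voom, and Ifitm6 minus Ifitm1 by -0.54 and -1.31. Ifitm1 gave no value with a mean of at least 5 RPKM or without WT replicate 1, where it missed the filter. All genes called numbered 403, and 203 to 293 with 1 library left out. The interferon calls went from 4 to 2 with no filter on low values, to 2 with a mean of at least 5 RPKM and to 1 to 2 with 1 library left out. The neighbor call went from 1 to 0 without the intensity trend and to 0 with any library left out. Of the 5 genes most like Ifitm6, a Pearson correlation named 0 and a pseudocount of 0.1 named 3. The cause of these changes was not tested, beyond the smaller number of libraries.

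Same-numbered libraries of the labels had deviations that correlated at 0.06, -0.06 and -0.12, so the numbers were not taken as a pairing. With the replicate number as a block, 246 genes were called in all, 1 of the interferon genes and 0 of the neighbors. Depth limits Ifitm1, Ifitm5, Ifitm7 and Ifitm10, and 3 libraries per label limit all comparisons.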

Other observations

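Within 500 kb of the chromosome 7 cluster there were 57 other genes, of which 29 were tested, and Rnh1 was again the one gene called. Their median difference was -0.17 on the log2 scale, with 18 of 29 below 0. Of the 29, 7 had an unadjusted p under 0.05 in limma, beside 15.9% of all tested genes.

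Of the genes behind the sort, named here after their values were seen, Itgam, a chain of Mac-1, had 76.8 ± 18.8 RPKM (SD, n = 3) in WT and 14.0 ± 2.51 RPKM (SD, n = 3) in Asic3-null, a difference of -2.35 on the log2 scale (SE 0.21, limma adjusted p = 0.000720). Kit, which encodes c-Kit, had 11.1 ± 3.60 RPKM in WT and 17.6 ± 3.00 RPKM in Asic3-null (SD, n = 3), a difference of 0.64 with an adjusted p of 0.219. Itgam was thus lower together with Ifitm6 and Ifitm3, and its part in their levels was not tested.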
